A study of Mus musculus with 8 samples.

Results

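Cell cycle and DNA replication genes were followed in 8 RNA sequencing libraries from mouse embryos. The 49 genes of the list were all present in both deposited count tables, each of which holds 23478 gene symbols. They were taken by name from a list drawn up with earlier results of these data known, and were described as 8 cyclins, 22 DNA replication genes and 19 mitosis genes. Expression was measured at E13.5 in 2 experiments with separate controls. Sorted tracheal cells came from Bmp4flox/flox, Foxg1Cre+, γSMAeGFP mutants (2 libraries) and from Bmp4flox/flox, γSMAeGFP controls (3 libraries). Both carry the floxed Bmp4 alleles and the GFP reporter for smooth muscle, and the sort discarded EPCAM-positive and GFP-positive cells, so the labelled chondroblasts are what remained. Whole tracheas came from 1 Wls flox/flox, ShhCre+ mutant and from 2 Wls flox/flox controls. BMP4 is a secreted growth factor, and WLS escorts Wnt proteins through the secretory pathway. Cre is present only in the mutants of each experiment, so a change that comes with the Cre allele and one that comes with the deletion cannot be told apart. Whether the libraries within a group represent different embryos is not stated, and p-values therefore cover no more than the library-to-library spread, which could be technical in origin.

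D-type cyclins bind CDK4 or CDK6 and start the phosphorylation of the retinoblastoma protein, which releases E2F transcription factors. E2F targets include cyclin E and much of the replication machinery: CDC6 and CDT1 load the MCM helicase on origins, CDC45 and GINS activate it, and polymerases, PCNA, RFC, FEN1 and LIG1 copy DNA and join its fragments. Cyclins A and B with CDK1 drive mitosis, and their genes, with those of kinetochore and spindle proteins, are repressed outside the cycle by the DREAM complex through CHR elements, often beside CCAAT boxes. In growing cartilage, cyclin D1 is known as a target of mitogenic signals in proliferating chondrocytes.

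Promoter sequences show these elements in the members themselves. RefSeq promoters (GRCm38.p6, which has the mm10 coordinates) matched 38 of the 49 genes, with 43 start sites, and the 250 bases before each start were searched on both strands for E2F words (TTTGGCGC, TTTCCCGC, TTTGCCGC or TTTCGCGC), CHR words (TTTGAA or TTCGAA) and the CCAAT box (CCAAT). An E2F word and its neighbour can overlap, as in Mcm5 and Mcm6. E2F words were in 16.3% of the members' windows and in 1.86% of all 32851 windows of that length. Among replication genes the share was 27.3% (6 of 22 windows), among mitosis genes 6.25% (1 of 16), and none of the 5 cyclin windows held one. The CCAAT box was in 87.5% of mitosis windows (14 of 16), 54.5% of replication windows and 33.8% of all windows. CHR words, which are short, were in 37.5% of mitosis windows against 17.1% of all. A match is a string of letters and not a bound site. The 4 windows below, from outside annotated gene bodies and picked after the search, show Mcm6 and Mcm5 with E2F words, Top2a with CHR words and CCAAT boxes, and 1 of the 2 windows of Ccnd3, which holds none of the 3 kinds (the other holds a CCAAT box), and capitals mark the words found.
Mcm6, chr1:128359706-128359955, minus strand: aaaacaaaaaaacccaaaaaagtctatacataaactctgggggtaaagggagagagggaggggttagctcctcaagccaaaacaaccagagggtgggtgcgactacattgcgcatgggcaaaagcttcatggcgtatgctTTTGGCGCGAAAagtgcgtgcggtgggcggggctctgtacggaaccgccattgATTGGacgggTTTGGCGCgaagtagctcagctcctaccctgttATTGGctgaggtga
Mcm5, chr8:75109259-75109508, plus strand: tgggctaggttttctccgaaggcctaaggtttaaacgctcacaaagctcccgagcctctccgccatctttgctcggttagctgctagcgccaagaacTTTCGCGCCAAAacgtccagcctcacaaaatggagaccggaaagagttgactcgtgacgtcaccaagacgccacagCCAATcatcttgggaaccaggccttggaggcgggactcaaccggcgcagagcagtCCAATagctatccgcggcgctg
Top2a, chr11:99024190-99024439, minus strand: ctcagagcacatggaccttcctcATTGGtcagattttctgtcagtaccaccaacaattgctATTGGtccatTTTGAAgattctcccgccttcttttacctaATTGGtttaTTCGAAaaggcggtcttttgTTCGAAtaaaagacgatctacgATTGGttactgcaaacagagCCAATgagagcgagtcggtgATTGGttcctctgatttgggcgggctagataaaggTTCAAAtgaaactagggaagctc
Ccnd3, chr17:47504801-47505050, plus strand: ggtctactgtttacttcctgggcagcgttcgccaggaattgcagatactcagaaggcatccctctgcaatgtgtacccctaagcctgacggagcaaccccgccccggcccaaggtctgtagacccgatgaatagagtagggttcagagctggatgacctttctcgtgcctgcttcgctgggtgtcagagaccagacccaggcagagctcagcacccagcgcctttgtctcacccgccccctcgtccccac
Mcm6 held 2 of its E2F words overlapping from 110 bases before the start and another 47 bases before it. Those of Mcm5 overlapped from 153 bases before the start. Top2a held 4 CHR words and 6 CCAAT boxes. Windows of members that were lower in Bmp4 mutants, described next, held E2F words in 18.8% (3 of 16) and windows of the other members in 14.8% (4 of 27). For CHR words the shares were 18.8% and 33.3%, and for the CCAAT box 75.0% and 63.0%.

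The sorted libraries differed in ways that touch every value below. Library totals were 12964287 and 15462780 counts in the mutants and 48876948 to 55492747 in the controls. Mutant libraries also carried a low signal over genes that were near 0 in the controls: 1449 olfactory and vomeronasal receptor genes summed to 2423 and 2167 CPM (counts scaled to a common library total) in the mutants and to 9.25 to 13.7 CPM in the controls. Spread over exon length, the signal of 4157 genes at 0 in every control came to 21.3 and 19.7 counts per kilobase in mutants 1 and 2. Globin genes took 12.3% of counts in mutant 1, 0.000476% in control 1 and 0.111% to 0.96% in the other 3. Because of this, levels are given as rescaled CPM, where each library is scaled by TMM factors from the 9646 genes with CPM of at least 10 in every control. All 49 members are among those genes and passed the expression filter. Bmp4 itself was at 29.5 and 36.3 rescaled CPM in the mutants and 109, 89.7 and 109.8 in the controls (log2 fold change -1.64 ± 0.17 SE, adjusted p = 0.00233, edgeR quasi-likelihood test), where exons outside the floxed part can still give reads. The tracheal libraries held 24596836 counts (mutant), 27237573 and 31399982 (controls), and Wls was at 65.8 against 153 and 146 (log2 fold change -1.18 ± 0.18 SE, adjusted p = 3.72e-05, edgeR).

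In the sorted cells most of the 49 genes sat lower in both Bmp4 mutants than in the controls, with a median log2 fold change of -0.40. Of the 49, 33 had both mutants below all 3 controls, 4 had both above, and 12 overlapped. Cyclins D1 and D2, PCNA and 5 of 6 MCM helicase subunits were among those that fell, cyclin D3 was not lower, and DNA polymerase epsilon (Pole) was higher. At an adjusted p below 0.05 over the 21665 genes tested, 16 members fell and 1 rose (edgeR quasi-likelihood test, 2 mutant and 3 control libraries). All genes tested were called lower in 3.6% and higher in 45.5% of cases, genes with CPM of at least 10 in every control in 7.94% and 10.1%, and genes with at least 50 CPM in 14.3% and 3.48%. The 33 non-overlapping members stand beside 10.7% of all genes, 23% of genes of 10 CPM and 37% of genes of 50 CPM, and the 4 above beside 58.2%, 22.7% and 10.7% in the same order.

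The members' median of -0.40 stood beside 0.92 for all genes tested, -0.00 for genes of at least 10 CPM and -0.15 for genes of at least 50 CPM. Cyclins and replication genes both had a median of -0.45 and mitosis genes one of -0.31. Of the members, 3 of 8 cyclins, 10 of 22 replication genes and 3 of 19 mitosis genes fell. These counts stand beside 7.94% and 14.3% called lower among genes of at least 10 and 50 CPM, and that of mitosis genes is near the latter. Without mutant 1 no member was called (0 lower and 0 higher, smallest adjusted p 0.0508, edgeR, with 16 members at an unadjusted p below 0.05). That fit called 5 of 20924 genes in all, the members' median in it was -0.31 (-0.42 for replication genes), and mutant 2 alone is assumed in it to vary like the controls. Without mutant 2 the members' median was -0.40. Without control 1, 2 or 3 the lower members numbered 5, 8 and 6, and Ccnd2 and Pcna were among them each time. Those 3 fits called 9559, 9289 and 9370 genes in all, in both directions together, and the share of all genes called lower in them was not taken. Scaling decides the count as well: TMM over all tested genes called 38 members lower, with 34.7% of genes of at least 10 CPM, and TMM on genes of at least 50 CPM called 3, with 3.56%. The set of genes tested decides it too: with only genes of at least 10 CPM fitted, 0 members were called lower.

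**Figure D1:**
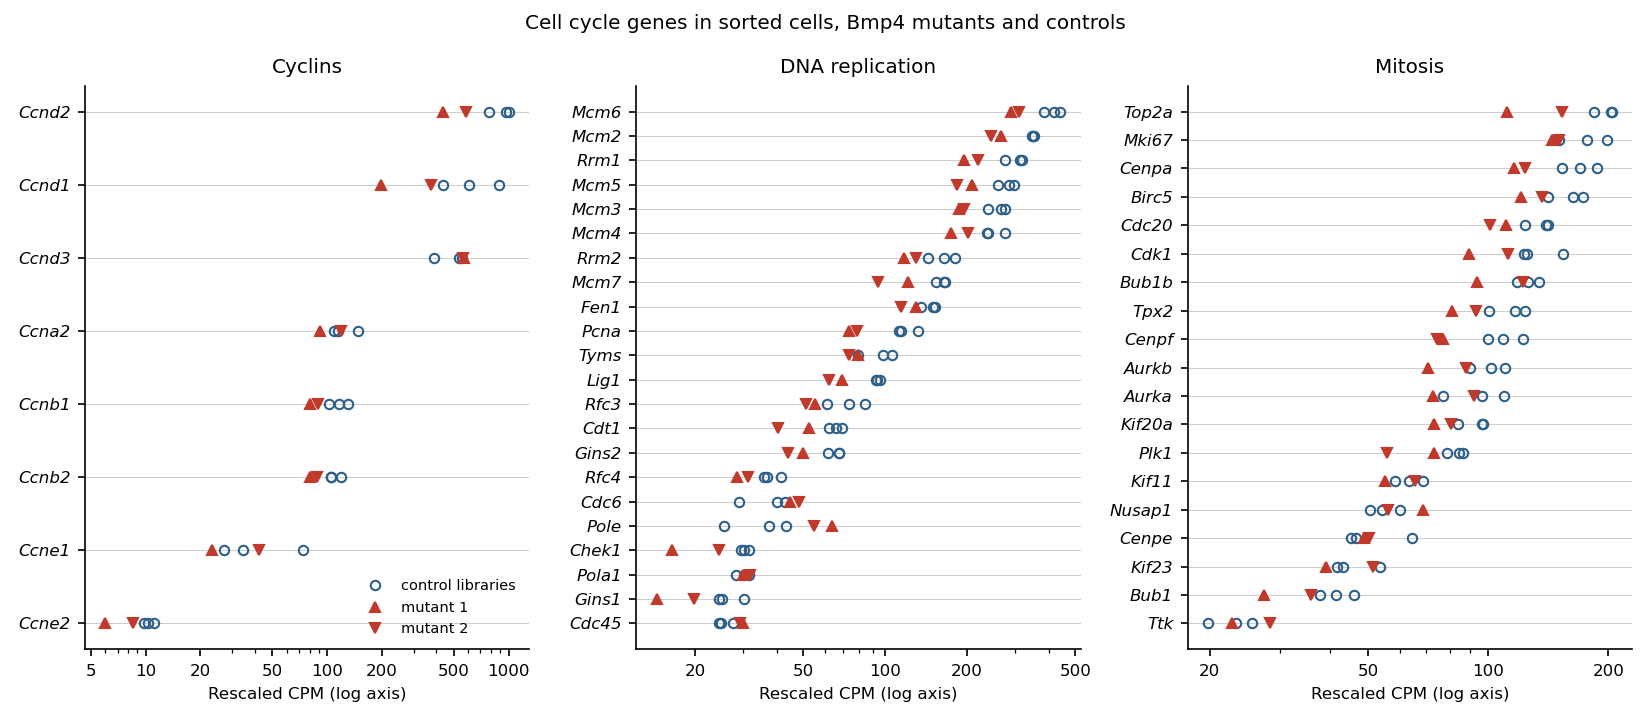
Rescaled CPM (log axis) of each gene in sorted cells, one row per gene and one panel per group. Open circles are the 3 control libraries and triangles are Bmp4 mutants 1 (pointing up) and 2 (pointing down). For 33 of 49 genes both triangles lie left of all circles, and for Ccnd3, Cdc6, Cdc45 and Pole both lie right of them.

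Cyclin D1 showed the largest difference among the members. Ccnd1 (mm10 chromosome 7, 144929931 to 144939925, minus strand) was at 199 and 372 rescaled CPM in Bmp4 mutants 1 and 2 and at 886, 607 and 433 in controls 1, 2 and 3. Every mutant was below every control, although the controls spread over a wide range and mutant 2 came close to control 3. The log2 fold change was -1.17 ± 0.37 SE (adjusted p = 0.0304, edgeR), and the call was lost without mutant 1 (-0.79, adjusted p = 0.214) or without control 1 (0.0518). It was also lost, at -1.03 and adjusted p = 0.102, once the per-kilobase background was subtracted.

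Cyclin D2, the other D-type cyclin that fell, had tighter controls. Ccnd2 (chromosome 6, 127125162 to 127152193, minus strand) was at 437 and 585 in the mutants and 1007, 777 and 965 in the controls. Both mutants were below every control, with mutant 1 lowest (log2 fold change -0.84 ± 0.21 SE, adjusted p = 0.0117, edgeR). Background subtraction left the call in place (-0.69, adjusted p = 0.0486), and without mutant 1 the log2 fold change was -0.65 with the call lost (adjusted p = 0.0819).

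Cyclin D3, which can stand in for the other D cyclins at CDK4 and CDK6, was not lower. Ccnd3 (chromosome 17, 47505051 to 47599691, plus strand) was at 570.0 and 559 in the mutants and 532, 552 and 389.5 in the controls. The mutants lay just above controls 1 and 2, and the difference was within the spread of the controls (log2 fold change 0.20 ± 0.19 SE, adjusted p = 0.425, edgeR). With TMM over all tested genes its sign turned, to -0.19. Per kilobase of exon, the controls' level of Ccnd3 (218 ± 39.3 rescaled CPM, SD, n = 3) was near those of Ccnd1 (172 ± 61.1) and Ccnd2 (145 ± 19.4).

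A ratio inside a library does not depend on any scaling between libraries. Counts of Ccnd1 over counts of Ccnd3 were 0.348 and 0.665 in the mutants and 1.67, 1.10 and 1.11 in the controls, so both mutants were below all controls. Ccnd3 made up 47.3% and 36.9% of all D-type cyclin counts in the mutants and 21.9%, 28.5% and 21.8% in the controls. The share of Ccnd2 was also lower in both mutants (36.3% and 38.6% against 41.5%, 40.1% and 54.0%), while that of Ccnd1 overlapped between the groups (16.5% and 24.5% against 36.5%, 31.4% and 24.2%). The ratio shows an unequal change of the 2 genes and was formed after their values were seen, so it has no test.

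**Figure D2:**
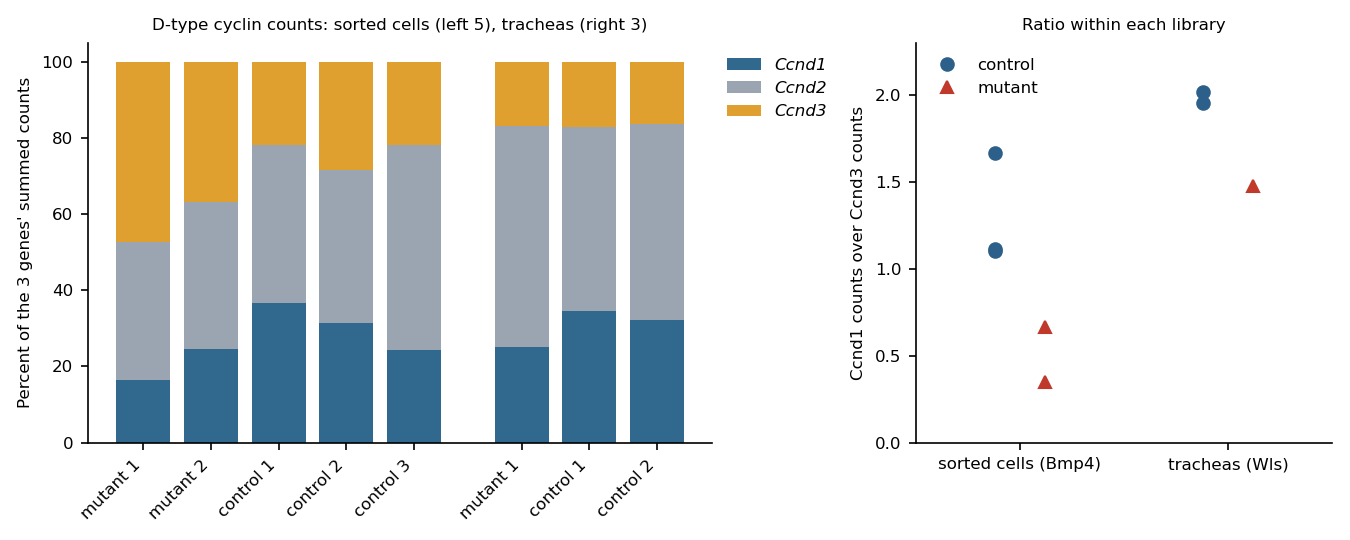
Left, stacked bars give the percent of D-type cyclin counts that came from Ccnd1, Ccnd2 and Ccnd3 in each library. Right, points give Ccnd1 counts over Ccnd3 counts, with the 2 Bmp4 mutants at 0.348 and 0.665 below their controls (1.10 to 1.67) and the Wls mutant at 1.48 below its controls (1.95 and 2.01).

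Of the mitotic cyclins, cyclin B1 fell. Ccnb1, the partner of CDK1 at entry into mitosis, was at 80.7 and 89.6 in the mutants and 116, 103 and 130.5 in the controls (log2 fold change -0.45 ± 0.16 SE, adjusted p = 0.045, edgeR). The 2 groups did not overlap, but the call was lost when any 1 of the 5 libraries was left out. Ccnb2 was at 80.5 and 88.3 against 104, 105 and 119, again without overlap, and did not pass the test (log2 fold change -0.37 ± 0.14 SE, adjusted p = 0.0599, edgeR). Ccna2, which works in S phase and early mitosis, overlapped between the groups at 91.5 and 119.6 against 148, 115 and 109 (log2 fold change -0.23 ± 0.19 SE, adjusted p = 0.364).

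The E-type cyclins, partners of CDK2 at the start of S phase, were the lowest of the cyclins. Ccne1 was at 23.1 and 42.4 in the mutants and 73.2, 34.5 and 26.9 in the controls, so mutant 2 was above controls 2 and 3 (log2 fold change -0.45 ± 0.45 SE, adjusted p = 0.439, edgeR). Its sign rests on control 1, and without that library the log2 fold change was 0.09. Ccne2 was at 5.99 and 8.57 against 11.1, 10.3 and 9.82 (log2 fold change -0.51 ± 0.37 SE, adjusted p = 0.295), and the estimated background equalled 102% and 47.0% of its mutant counts, so its level in mutant 1 was not detectable above that background.

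Of the 22 replication genes 10 fell and Pole rose. PCNA, the clamp that holds polymerases on DNA, had the smallest adjusted p of all members. Pcna was at 73.7 and 78.6 in the mutants and 112, 114 and 132 in the controls (log2 fold change -0.65 ± 0.14 SE, adjusted p = 0.00757, edgeR). The call was kept after background subtraction (-0.51, adjusted p = 0.0406) and lost without mutant 1 (-0.60, adjusted p = 0.0626). Lig1, which seals Okazaki fragments, was at 69.2 and 61.9 against 92.2, 93.2 and 95.9, with both mutants below closely spaced controls (log2 fold change -0.52 ± 0.13 SE, adjusted p = 0.014). It too was called after background subtraction (adjusted p = 0.0488), but not without mutant 1, mutant 2 or control 2.

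All 6 subunits of the MCM2 to MCM7 helicase ring had both mutants below all controls, and 5 of them fell. Mcm6, the highest of the replication genes in CPM, was at 291 and 309 in the mutants and 384, 418 and 441 in the controls (log2 fold change -0.47 ± 0.15 SE, adjusted p = 0.0363, edgeR). Mcm2 was at 266 and 245 against 345, 352 and 349, where the controls nearly coincide (log2 fold change -0.45 ± 0.14 SE, adjusted p = 0.034). Mcm7 had the lowest ratio of the ring, at 121 and 94.1 against 165, 154 and 166 (log2 fold change -0.59 ± 0.16 SE, adjusted p = 0.0177). Leaving out either mutant ended all 5 calls, and of the 5 only Mcm7 was still called without control 1, 2 or 3. In Mcm2, Mcm5 and Mcm7 mutant 2 was the lower of the mutants, and in the other 3 it was mutant 1.

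Mcm5 was at 208 and 183 against 285, 259 and 298 (log2 fold change -0.52 ± 0.15 SE, adjusted p = 0.0245, edgeR). Mcm3 was at 187 and 195 against 239, 275 and 267 (log2 fold change -0.45 ± 0.15 SE, adjusted p = 0.0363). Mcm4 did not pass the test, at 174 and 201 against 239, 237 and 275 (log2 fold change -0.42 ± 0.16 SE, adjusted p = 0.0593). The log2 fold changes of the 6 subunits thus lay between -0.59 and -0.42. After background subtraction they lay between -0.46 and -0.27 and none passed the test, the smallest adjusted p being 0.095 for Mcm7.

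Of the listed factors that load and fire the helicase, only Gins2 and Cdt1 were called, both lower. Gins2, a subunit of the GINS complex, fell from 67.3, 61.3 and 67.5 in the controls to 49.7 and 44.0 in the mutants (log2 fold change -0.48 ± 0.14 SE, adjusted p = 0.0267, edgeR). Its partner Gins1 lay lower as well without passing the test (log2 fold change -0.64 ± 0.25 SE, adjusted p = 0.0653). Cdt1, a loading factor, fell (log2 fold change -0.50 ± 0.16 SE, adjusted p = 0.0364) at 52.3 and 40.4 against 69.4, 65.7 and 62.0. Cdc6, which loads the helicase with CDT1, was at 44.6 and 48.1 against 39.99, 29.0 and 42.6, above all controls, and did not pass the test (log2 fold change 0.32 ± 0.20 SE, adjusted p = 0.233). Cdc45 did not pass it either, at 30.1 and 29.3 against 24.8, 24.5 and 27.4 (log2 fold change 0.21 ± 0.19 SE, adjusted p = 0.381). Both turned negative with TMM over all tested genes, to -0.07 and -0.17. The estimated background made up 20.4% and 12.5% of the mutant counts of Cdc6 and 13.6% and 9.21% of those of Cdc45. After its subtraction their log2 fold changes were 0.25 and 0.23, and neither was called. The calls of Gins2 and Cdt1 were lost when any 1 of the 5 libraries was left out.

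Ribonucleotide reductase supplies deoxynucleotides. Rrm1, its large subunit, was at 194 and 219 in the mutants and 319, 275 and 314 in the controls, and fell (log2 fold change -0.55 ± 0.16 SE, adjusted p = 0.0206, edgeR). Its call was lost without mutant 1, control 1 or control 3. Rrm2, the small subunit, was lower in both mutants without passing the test (log2 fold change -0.40 ± 0.16 SE, adjusted p = 0.0703). Tyms, which makes thymidylate, overlapped between the groups (log2 fold change -0.30 ± 0.16 SE, adjusted p = 0.169).

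Among the polymerases Pole stood out. Pole, the catalytic subunit of the leading-strand polymerase, was at 63.4 and 54.6 in the mutants and 37.4, 25.4 and 43.2 in the controls, higher in both mutants (log2 fold change 0.74 ± 0.23 SE, adjusted p = 0.0329, edgeR). The estimated background made up 21.5% and 16.5% of its mutant counts, and subtracting it left 0.62 (adjusted p = 0.119). The call was also lost without mutant 1 (adjusted p = 0.182), mutant 2 (0.0796) or control 2 (0.0736), and with TMM over all tested genes (0.34, adjusted p = 0.245). Pola1, the catalytic subunit of the polymerase that starts each fragment, was at 29.97 and 31.9 against 30.2, 28.3 and 31.6 (log2 fold change 0.04 ± 0.18 SE, adjusted p = 0.87), with 33.9% and 21.1% of its mutant counts at background level. Its sign turned, to -0.24, when that was subtracted. The flap nuclease Fen1, the clamp loaders Rfc3 and Rfc4 and the checkpoint kinase Chek1 had both mutants below all controls and log2 fold changes from -0.58 (Chek1) to -0.26 (Fen1), and none passed the test.

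Of the 19 mitosis genes 3 fell, a share near the 14.3% called lower among genes of at least 50 CPM. Among genes of at least 10 CPM it was 7.94%. Topoisomerase II alpha untangles sister chromatids, and Top2a was at 111 and 153 in the mutants and 203, 184 and 204 in the controls (log2 fold change -0.58 ± 0.18 SE, adjusted p = 0.029, edgeR). Mutant 1 was the lower by a wide margin. Cenpa, the histone H3 variant of centromeres, was at 116 and 124 against 170.2, 154 and 188 (log2 fold change -0.51 ± 0.15 SE, adjusted p = 0.0264). Cenpf, a kinetochore protein, was at 77.0 and 74.4 against 109, 99.6 and 122 (log2 fold change -0.54 ± 0.15 SE, adjusted p = 0.0172). With 27.5% and 18.8% of its mutant counts at background level, Cenpf was lower still after subtraction (-0.74, adjusted p = 0.0216). With 1 library left out, Cenpf was called without each of the controls and lost without either mutant. Top2a was called in that setting only without mutant 2, and Cenpa only without control 2.

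The proliferation marker Mki67 did not pass the test. It was at 145 and 150.2 in the mutants and 198, 150.1 and 177 in the controls, where mutant 2 and control 2 met (log2 fold change -0.25 ± 0.16 SE, adjusted p = 0.251, edgeR). Cdk1, Cdc20, Bub1, Plk1, Aurkb, Kif20a, Tpx2 and Birc5 had both mutants below all controls, with log2 fold changes from -0.41 (Cdk1) to -0.27 (Kif20a) and adjusted p-values from 0.0764 to 0.158. These encode CDK1, the APC/C activator, further kinases of mitosis, a midzone kinesin, a spindle assembly factor and survivin. The other 7, Bub1b, Aurka, Cenpe, Kif11, Kif23, Nusap1 and Ttk, overlapped between the groups, with log2 fold changes from -0.22 (Bub1b) to 0.18 (Nusap1). Of those 7, the signs of Cenpe, Kif11, Kif23, Nusap1 and Ttk turned under at least 1 other scaling.

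**Figure D3:**
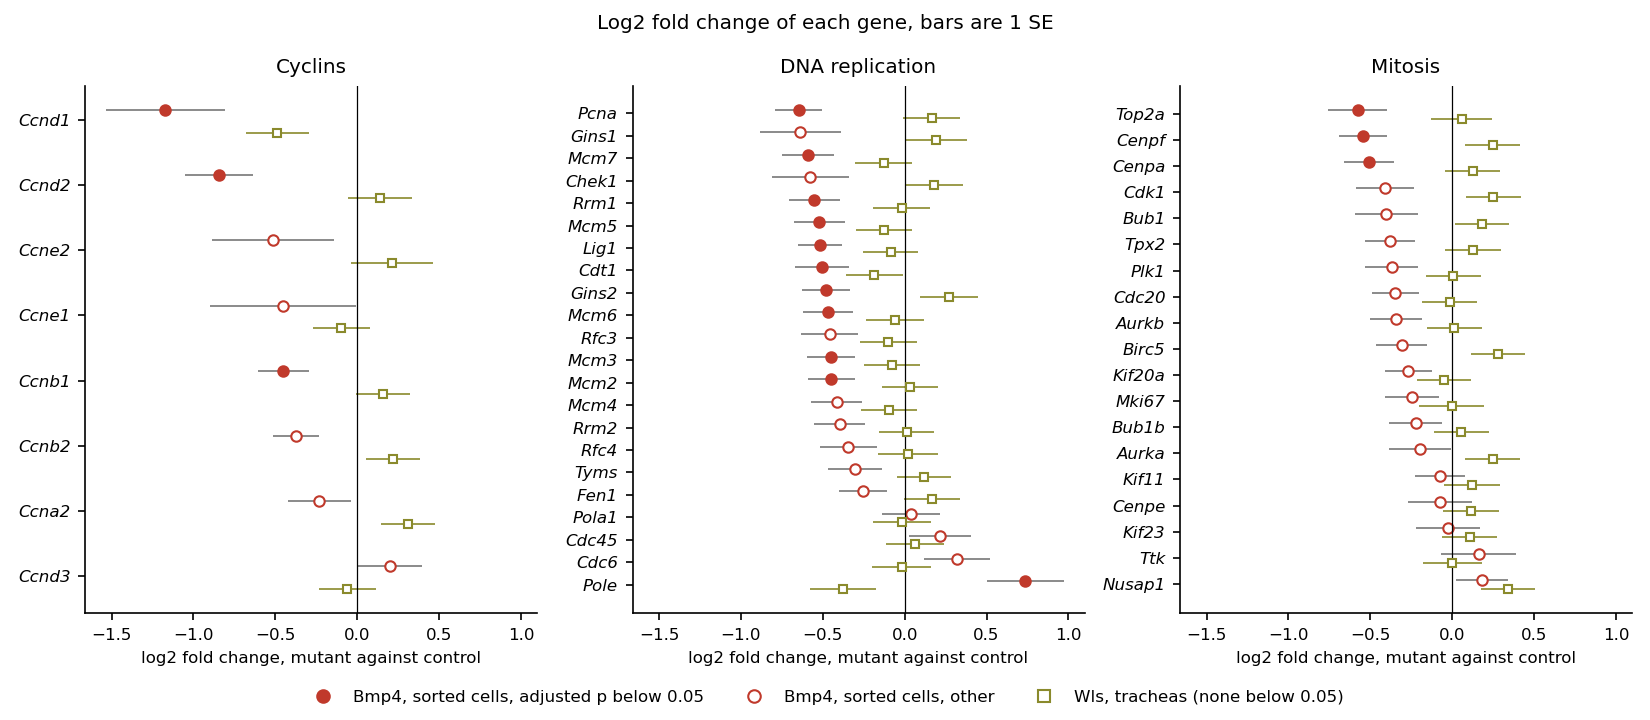
Log2 fold change of each gene, mutant against control, with bars of 1 SE, in 3 panels by group. Filled circles are the 17 genes past the threshold in sorted Bmp4 mutants, open circles the other genes there, and squares the Wls tracheas, where no gene passed. Ccnd1 at -1.17 is lowest and Pole at 0.74 highest.

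The 2 mutant libraries did not deviate equally. Against the control mean, the median of the 49 genes was -0.42 in mutant 1 and -0.31 in mutant 2, and 33 genes were lower in mutant 1. The gap lay in cyclins (-0.66 and -0.29) and mitosis genes (-0.36 and -0.21), while replication genes had -0.41 and -0.42. Estimated background was a median 7.55% of the members' counts in mutant 1 and 4.91% in mutant 2. After its subtraction the members' median was -0.29, and Ccnd2, Cenpf, Lig1 and Pcna were called lower, beside 4.14% of genes of at least 10 CPM.

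**Figure D4:**
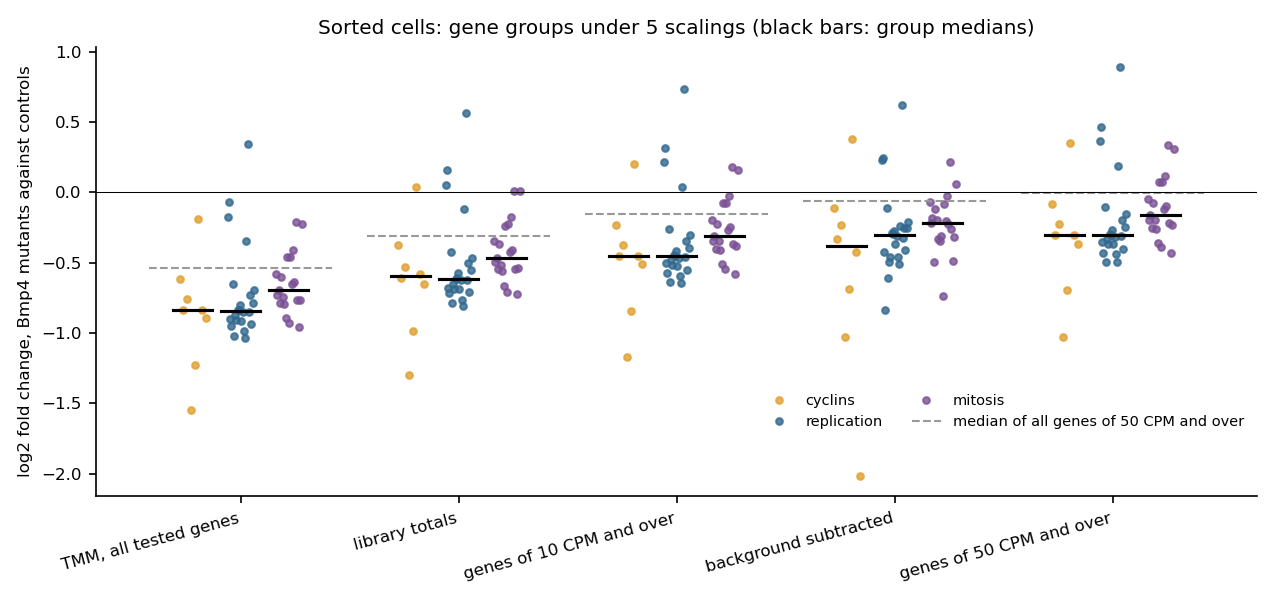
Log2 fold change of each gene in sorted Bmp4 mutants (points, by group) under 5 ways of scaling, with black bars for group medians and dashed lines for the median of all genes of at least 50 CPM. The members' overall median runs from -0.78 with TMM over all tested genes to -0.25 with TMM on genes of 50 CPM. Each group's median stays below the dashed line in all 5. Apart from background subtraction, the scalings shift members and other genes nearly alike, so they could not change that order.

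Markers of cell types moved between the same libraries. Of 13 chondroblast markers 7 were lower and 1, Matn1, higher, and their summed level was 851 and 1832 rescaled CPM in mutants 1 and 2 against 5659, 3592 and 2684 in the controls. Matn1 was at 0 in controls 1 and 2. Smooth muscle markers summed to 1907 and 277 against 115 to 151, with 9 of 10 higher, although the sort removed GFP-positive cells. Fibroblast and perichondrial markers summed to 11523 and 12264 against 4522 to 7232, with 5 of 7 higher. Erythroid markers summed to 145123 and 1270 against 29.1 to 8887. Leukocyte markers (391 and 268 against 133 to 186), endothelial markers (268 and 184 against 23.7 to 99.9) and neural markers (711 and 747 against 286 to 474) were higher in both mutants as well. Epithelial markers summed to 97.7 and 62.0 against 22.5 to 34.7, with Krt5 and Shh at 0 in every control. Skeletal muscle markers overlapped (448 and 215 against 83.8 to 260). Of all genes tested 3.6% were called lower and 45.5% higher, and 58.2% had both mutants above every control. The part of these cells, of the library depth and of the background in the members' differences was not tested, and fewer cells of a type and less RNA per cell cannot be told apart.

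Other genes of the same pathways, from lists beyond the 49, did not move as 1 block. Among 14 further cyclin-dependent kinases, their subunits and phosphatases 4 were lower and none higher. Genes of at least 10 and 50 CPM were called lower in 7.94% and 14.3% of cases. Cdk4, the kinase of the D cyclins, was at 627 and 655 in the mutants and 1047, 972 and 1033 in the controls (log2 fold change -0.67 ± 0.16 SE, adjusted p = 0.0103, edgeR). Both mutants were far below closely spaced controls. Cks2, a CDK-binding subunit, and Skp2, which recognises the CDK inhibitor p27 for degradation, fell with it (-0.74 and -0.57, adjusted p = 0.0105 and 0.0159). After background subtraction Cdk4, Cks2 and Skp2 were not called (-0.49, -0.60 and -0.47, adjusted p = 0.0506, 0.0563 and 0.0587). None of 8 CDK inhibitor genes was lower, and the 1 called higher, Cdkn2a, was at 0.626 and 0.768 against 0, 0 and 0.0378 rescaled CPM. Cdkn2a had no fitted value after background subtraction, so its call is not separated from the mutants' background. Of all genes tested 45.5% were called higher.

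Calls in the replication lists, counted next, stand beside the 7.94% and 14.3% called lower among genes of at least 10 and 50 CPM. Of 24 fork and polymerase genes 5 were lower and 1 higher (median -0.26). Pold1, the catalytic subunit of DNA polymerase delta, was at 78.8 and 72.2 against 128, 125 and 107 (log2 fold change -0.67 ± 0.15 SE, adjusted p = 0.00714, edgeR), and Chaf1b (-0.53) and Timeless (-0.54) fell too. Pole2, a smaller subunit of polymerase epsilon, was called higher, at 15.2 and 17.8 against 8.08, 8.64 and 9.63 (log2 fold change 0.91 ± 0.31 SE, adjusted p = 0.0394). Of 18 origin genes 2 were lower, Gmnn (-0.61), the inhibitor of CDT1, and Gins4 (-0.50). Of 12 nucleotide supply genes 2 were lower, the dUTPase Dut (-0.74, adjusted p = 0.00771) and the pyrophosphatase Dctpp1 (-0.78, adjusted p = 0.00625). After background subtraction Pold1, Dut and Dctpp1 were still called (adjusted p = 0.0335, 0.0356 and 0.0471). Pole2 (0.84, adjusted p = 0.110), Chaf1b, Timeless, Gmnn and Gins4 (adjusted p from 0.0559 to 0.137) were not.

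Mitotic lists held calls in both directions. They stand beside 7.94% and 14.3% called lower among genes of at least 10 and 50 CPM. Called higher were 45.5% of all genes tested and 10.1% of genes of at least 10 CPM. Of 18 cohesin and condensin genes 3 were lower (Rad21, Smc2 and Smc1a, -0.79, -0.46 and -0.44) and 2 higher (Ncapd3 and Ncapg2, 0.83 and 0.44). Of 21 kinetochore and checkpoint genes 2 were lower (Bub3 and Mad2l1, -0.57 and -0.54) and 2 higher (Hjurp and Zwilch). Hjurp, the chaperone that deposits CENPA, was at 61.7 and 27.1 against 7.39, 8.10 and 7.23, while Cenpa fell (log2 fold change 2.55 ± 0.35 SE, adjusted p = 0.00238, edgeR). Of 24 spindle genes Kifc1 was lower (-0.81) and Kif14 higher (2.33), and of 15 APC/C genes Cdc26 was lower (-0.55). Hjurp, Kif14, Ncapd3 and Zwilch were still called higher after background subtraction, at 2.48, 1.68, 0.76 and 0.82, and Kifc1 lower at -1.12. In that setting 18.4% of all genes tested and 4.72% of genes of at least 10 CPM were called higher. The median of all genes tested was then 0.21, so a general upward excess remained. Ncapg2 (adjusted p = 0.129) and the lower calls of Rad21, Smc2, Smc1a, Bub3, Mad2l1 and Cdc26 (adjusted p from 0.0658 to 0.154) were lost.

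Regulators of E2F had no lower call. Of 19 E2F, RB and DREAM genes 5 were higher, led by Rb1 (log2 fold change 1.75 ± 0.38 SE), Rbl2 (log2 fold change 0.89 ± 0.20 SE) and E2f2 (log2 fold change 1.53 ± 0.50 SE). E2f2 was at 49.9 and 12.4 in the mutants and 11.5, 10.4 and 10.3 in the controls, so mutant 1 alone stood far above them. After background subtraction Rbl2 stayed called (0.87, adjusted p = 0.0318), whereas Rb1 (adjusted p = 0.263) and E2f2 (adjusted p = 0.209) did not. Of 16 p53 targets 4 were higher and none lower, led by Eda2r (1.62), Fas (1.90) and Zmat3 (0.82), none of them called after subtraction. Of 20 DNA damage genes 7 were higher, led by Fancd2 (2.04), Atm (1.34) and Fanci (1.33), and Msh6 was lower (-0.53). After subtraction Fancd2, Atm and Fanci were called (1.78, 0.96 and 1.03) and Msh6 was not (adjusted p = 0.0997). These calls stand beside 45.5% of all genes tested called higher, and beside 18.4% after background subtraction. For genes of at least 10 CPM the shares were 10.1% and 4.72%.

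In whole tracheas with Wls deleted by ShhCre, which acts in the airway epithelium, no member passed the test. At an adjusted p below 0.05 over 15815 genes, 0 members were lower and 0 higher, beside 1.78% and 1.47% of all genes tested (edgeR quasi-likelihood test, 1 mutant and 2 control libraries), and DESeq2 also called 0. At an unadjusted p below 0.05 there were 2 members, Ccnd1 and Nusap1. The members' median log2 fold change was 0.06, with cyclins at 0.15, replication genes at -0.02 and mitosis genes at 0.12. The test has 1 residual degree of freedom, and the mutant library is assumed to vary like the controls.

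The mutant lay below both controls for 13 members and above both for 22, where 37.1% and 37.4% of all genes tested do so. It was outside by more than the controls differed for 8 below and 16 above, beside 18.6% and 21.7% of all genes. Of the 22 members above both controls 11 were mitosis genes, and 1 further mitosis gene, Kif20a, was below both. Replication genes had 10 below and 7 above.

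**Figure D5:**
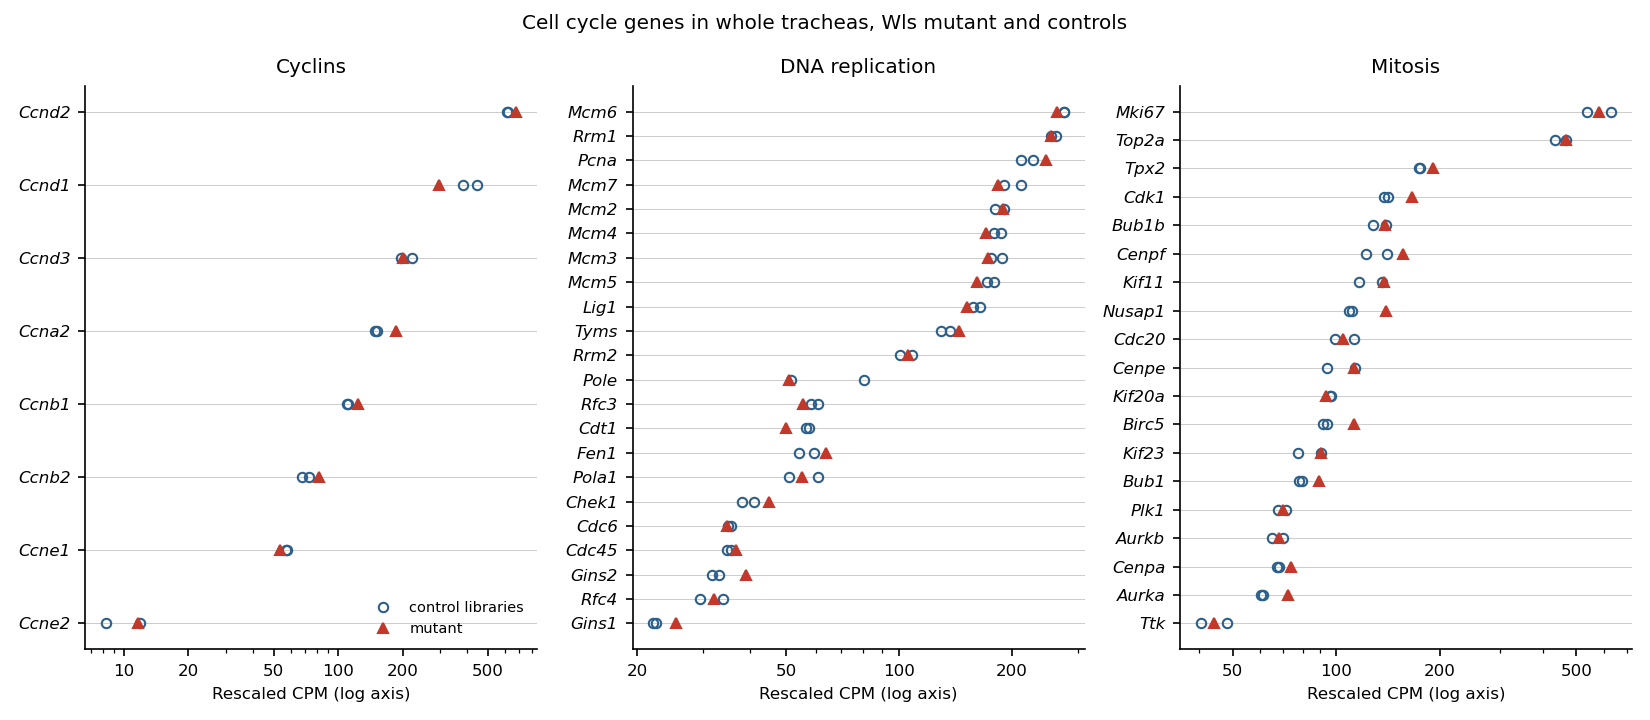
Rescaled CPM (log axis) of each gene in whole tracheas, one row per gene and one panel per group. Open circles are the 2 control libraries and the triangle is the Wls mutant. Ccnd1 (295 against 445 and 383) lies left of its controls, and most other triangles lie on or close to the circles.

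Ccnd1 again had the lowest log2 fold change of the members. It was at 295 rescaled CPM in the Wls mutant and 445 and 383 in the controls, below both by more than they differed (log2 fold change -0.49 ± 0.19 SE, adjusted p = 0.202, edgeR). Ccnd2 was at 680.1 against 623 and 611 and Ccnd3 at 200.2 against 221 and 196, with log2 fold changes of 0.14 and -0.06. The ratio of Ccnd1 to Ccnd3 counts was 1.48 in the mutant against 2.01 and 1.95, while the Ccnd3 share of D-type cyclin counts, 17.0%, was within that of the controls (17.1% and 16.5%). Per kilobase the controls' order was Ccnd1 (111), Ccnd2 (97.5) and Ccnd3 (92.4).

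The other cyclins were close to their controls. Ccna2 was at 186 against 149 and 151 (log2 fold change 0.31 ± 0.17 SE, adjusted p = 0.425, edgeR), above both. Ccnb1 was at 123 against 111 and 109.8 and Ccnb2 at 81.7 against 72.8 and 67.6, also above both, by 0.16 and 0.22. Ccne1 was at 53.7 against 57.1 and 57.6 and Ccne2 at 11.6 against 8.21 and 11.8. Adjusted p-values of these 5 ran from 0.425 to 0.872.

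Replication genes that fell in the sorted Bmp4 mutants showed smaller differences here. Pcna was at 246 against 227 and 212 (log2 fold change 0.17 ± 0.17 SE, adjusted p = 0.755, edgeR), Mcm6 at 265 against 275 and 276 (-0.06) and Rrm1 at 255 against 262 and 254 (-0.02). The 6 MCM subunits lay between -0.13 and 0.03. Pole, high in the Bmp4 mutants, was at 50.8 against 51.3 and 80.5, where the controls differed widely (log2 fold change -0.38 ± 0.20 SE, adjusted p = 0.42). The experiments were not tested against each other, since kits and samples differ.

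Mki67 was at 583 in the Wls mutant, between the controls at 536 and 633. Top2a was at 468 against 432 and 468 and Tpx2 at 192 against 176 and 175 (0.06 and 0.13). The highest log2 fold change of any member was that of Nusap1, a spindle microtubule protein, at 139.9 against 111 and 109 (log2 fold change 0.34 ± 0.16 SE, adjusted p = 0.356, edgeR). Cell type markers differed between these libraries too. Chondroblast markers summed to 768 rescaled CPM in the mutant against 2078 and 1771 (10 of 12 tested lower). Smooth muscle markers summed to 2747 against 1987 and 1666 (2 of 10 called higher). Epithelial markers summed to 1131 against 799 and 658, with 4 of 10 called higher and 1, Krt5, lower. Of all genes tested 1.78% were called lower and 1.47% higher. The part of these cells in the members' values was not tested.

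Of the other 12 lists of cell cycle and checkpoint genes, 11 had 0 genes called in the tracheas, and p53 targets had 1 in each direction. Btg2, an antiproliferative transcription cofactor, was at 70.4 in the Wls mutant against 48.4 and 42.2 and was called higher (log2 fold change 0.64 ± 0.17 SE, adjusted p = 0.0296, edgeR). Plk2, a kinase of the centriole cycle, was at 63.3 against 93.8 and 109.8 and was called lower (log2 fold change -0.69 ± 0.18 SE, adjusted p = 0.0201). Both calls set a single mutant library against 2 controls. In the sorted cells Btg2 was not called, at 413 and 920.2 (mutants) against 59.3, 704 and 498 (controls), where control 1 was far below the others. Cdk4, which fell in the Bmp4 mutants, was at 681 against 657 and 624 in the tracheas (log2 fold change 0.09 ± 0.20 SE, adjusted p = 0.902).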

How the data were processed

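RNA from sorted tracheal cells (SMART-Seq v4 kit) and whole tracheas (Ovation v2 kit) was made into Nextera XT libraries, per the labels' protocols. The deposited values are whole-number counts per gene symbol, 1 table per experiment. Tools named in the submitters' processing notes are Bowtie2, Cufflinks and DESeq with the build mm10, plus Trim Galore for sorted cells. Which program counted the reads, on which strand and with which annotation is not given in the sources used here, so reads of overlapping genes on opposite strands cannot be told apart. Replicate libraries differed by 23.4 to 184 times counting noise (chi-square over its degrees of freedom), so each counted once.

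Counts were tested within each table in R 4.3.3 with edgeR 4.0.16 (filterByExpr, quasi-likelihood F test, two-sided, Benjamini-Hochberg adjustment over all genes tested, threshold 0.05), with 3 residual degrees of freedom in sorted cells and 1 in tracheas. Every adjusted p comes from this test unless DESeq2 1.42.0 is named. TMM factors came from genes with CPM of at least 10 in every control (9646 in sorted cells, 10174 in tracheas) and ran from 0.862 (mutant 1) to 1.07. SE is the log2 fold change over the root of F. Background per kilobase of RefSeq-matched GENCODE M21 exons was estimated from genes at 0 in every control. The fit was tested on simulated data. Reads carry no molecular identifiers, and intervals of counting error would be too narrow, so none is given.

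Members and lists were chosen with earlier results of these data known. Values per library are given for all cyclins, for up to 10 replication and mitosis genes past the threshold, and for the 3 of each with the highest control CPM. Of other lists the leading 3 genes per direction are named, some with values per library and the others with a log2 fold change only. Cdt1, Mcm4, Cdc6, Cdc45, Pola1 and tracheal Nusap1 and Pole were added after their values were seen.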

Additional observations from a re-analysis of the deposited data

How the results depend on the processing

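In sorted cells the 16 members called lower became 38 with TMM over all tested genes or with DESeq2 on all genes, 3 with TMM on genes of at least 50 CPM, 4 after background subtraction and 0 when only genes of at least 10 CPM were fitted. In that last setting 340 genes were called in place of 10647, 9646 were tested, and the members' smallest adjusted p was 0.0533 (edgeR, 26 members at an unadjusted p below 0.05). The main fit also had 26 such members and the same median of -0.40. Of its calls, 9868 were genes called higher. The adjusted p-values of the members therefore depended on which other genes were fitted beside them. Background subtraction called 4033 genes. The 1 member called higher became 0 under TMM over all tested genes, library totals, DESeq2 on all genes, genes of at least 10 CPM only, and background subtraction. The cause of the other changes was not tested. Leaving out 1 library gave 0 to 8 lower members, 0 to 1 higher members and 5 to 9559 genes called in all, the lowest without mutant 1. Without mutant 2 it was 6355. A lone mutant is assumed to vary like the controls. The number of members with both mutants below all controls, 33, was 24 to 43 under other scalings and 34 to 40 with a library left out, alternatives chosen after seeing the data. Leaving out a library can hardly lower this count, since fewer libraries have to be in order, so 34 to 40 is no check of it. The share of all genes was not taken in these settings.

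Replicate numbers are shared by mutants and controls 1 and 2. Deviations of same-numbered libraries correlated at -0.17 and -0.10. With 2 mutants the deviations mirror each other (control 1 gave -0.17 with mutant 1 and 0.17 with mutant 2). These values therefore cannot decide whether the numbers pair the samples. With a replicate block, which leaves 1 residual degree of freedom, 0 members were lower (10 members at an unadjusted p below 0.05 in either direction, edgeR), Pole was higher and 3877 genes were called in all. No paired analysis was possible for the tracheas because the mutant carries no number.

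Signs turned for members near 0. With TMM over all genes and with DESeq2 on all genes, log2 fold changes were -0.19 and -0.15 for Ccnd3, -0.069 and -0.035 for Cdc6, -0.17 and -0.14 for Cdc45, -0.35 and -0.31 for Pola1, -0.21 and -0.17 for Nusap1 and -0.22 and -0.19 for Ttk. Pola1 was also -0.12 with library totals and -0.24 after background subtraction. With TMM on genes of at least 50 CPM, Cenpe was 0.075, Kif11 0.074 and Kif23 0.12. With the replicate block Cenpe was 0.11 and Kif23 0.082. With 1 library left out, Ccne1 ran from -0.94 to 0.086 (the latter without control 1), Pola1 from -0.00098 (without control 2) to 0.086, Cenpe from -0.18 to 0.11 (without control 3), Kif11 from -0.18 to 0.045 (without mutant 1) and Kif23 from -0.22 to 0.16 (without mutant 1, and 0.093 without control 3).

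In tracheas 0 members were called in every alternative with a test. All genes called, 514, became 268 and 251 with DESeq2 on all and on reference genes and 338 when only genes of at least 10 CPM were fitted. With library totals Rrm2 was -0.0068, Rfc4 -0.00090, Plk1 -0.0104, Aurkb -0.0056 and Ttk -0.0187, and Mki67 was 0.0054 with TMM on genes of at least 50 CPM and 0.0025 and 0.0072 with DESeq2. Leaving out a control there gives values with no test, since no residual degrees of freedom remain.

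Members counted from 67 reads (Ccne2, mutant 1) to 58711 reads (Ccnd2, control 1) a library. Depth in the mutants was below that in every control, and genes near the mutants' background have the least certain levels.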
